A study of Oryza sativa with 6 samples.

Results

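Red chlorophyll catabolite reductase (OsRCCR1), the NYC1-like chlorophyll b reductase (OsNOL), the senescence-associated transaminase OSL2 and the cysteine protease named SAG12 are 4 rice genes tied to chlorophyll breakdown and leaf senescence. They were taken as 4 of 17905 genes measured on the array, matched through the platform annotation by gene symbol or RefSeq synonym, and each gene was represented by its probe set with the highest mean over 6 arrays. They were selected on their difference between mutant and wild type in earlier results of these same arrays, so those differences are given here as a description, with no test.

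RNA came from flag leaves, the uppermost leaf of the shoot, of the japonica rice cultivar Zhonghua11. There were 3 arrays of wild type plants and 3 of plants of the same cultivar with a T-DNA insertion in OsSLAC7 (Os01g0385400), and both kinds of plants stood untreated in a greenhouse and then in the field. The labels give neither the number of insertion alleles, nor zygosity, nor leaf age or the time of harvest. They name the arrays of a group biological replicates without saying that each came from a separate plant, so every p-value measures the spread between these samples. No naturally senescing leaf is among the samples, and a likeness to natural senescence could therefore be described only gene by gene.

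When a leaf senesces, its chlorophyll is dismantled in order. Chlorophyll b is first reduced towards chlorophyll a by the reductases NYC1 and NOL, magnesium is removed by the dechelatase SGR (STAY-GREEN), the phytol tail is cut off, the ring is opened by pheophorbide a oxygenase, and the red product is reduced by RCCR to a colourless, fluorescent catabolite that goes to the vacuole. Alongside, vacuolar proteases and autophagy break down chloroplast protein, amino acids are moved to the phloem, and membrane lipids are burned in peroxisomes, while transcripts of photosynthesis decline.

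On the arrays as a whole, medians of the log2 values lay between 4.58 and 4.72, and arrays of one group correlated at 0.992 to 0.996 across probe sets. The targeted gene itself was not analysed here, as none of 3 names searched for it matched the gene tables, so the labels were not checked by its level. The leaf identity was plain, with the Rubisco small subunit RBCS at 14.30 in wild type and 14.20 in mutant leaves and the antenna gene CAB2R at 13.89 and 14.01 on the log2 scale. Of 20 markers of panicle and flower organs 9 rose and none fell by limma, beside 21.0% and 6.32% of all genes. After centring arrays on their gene median 7 rose and 3 fell, beside 1804 and 3935 of all 17905 genes. On the deposited scale the rises were led by MADS7 (difference 1.71) and MADS8 (1.57), while 11 markers did not pass and 5 had a negative difference. Their summed level on the linear scale ran from 6011 to 6203 in wild type and from 5924 to 6267 in mutant leaves, and this sum overlapped between groups. The sum is dominated by MADS14 (log2 means of 12.08 in wild type and 11.98 in mutant) and MADS15 (9.65 and 9.49), neither past the threshold. Markers that rose from a low level, such as MADS8 (4.25 and 5.82), hardly enter it, so the overlap does not bear on them. Of 15 dividing-cell markers 7 rose and none fell, beside the same shares of all genes, or 4 rose without mutant replicate 2, and their summed level went from between 507 and 543 in wild type to between 642 and 755 in mutant arrays. RMA values have no zero, so that no marker could be called absent. The part of these tissues in the differences below was not tested.

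OsRCCR1 differed most. This enzyme acts late in the chloroplast part of the pathway, turning the red catabolite into one that is less harmful in light. Its log2 values were 8.30, 8.08 and 8.18 in wild type replicates 1, 2 and 3 and 8.94, 8.86 and 8.92 in the mutant replicates. The lowest mutant value stood 0.56 above the highest wild type value, a gap wider than the span of either group (0.21 in wild type and 0.08 in mutant). The means were 8.19 ± 0.11 and 8.91 ± 0.04 (SD, n = 3 each), a difference of 0.72 (SE 0.08) on the log2 scale, or 1.65-fold. Only 5.96% of all genes had a larger rise. In bulk leaf RNA, more cells that carry a transcript and more transcript per cell cannot be told apart.

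OsNOL acts at the entry of the pathway, where it reduces chlorophyll b together with NYC1. On its brighter probe set the wild type values were 8.87, 8.65 and 8.69 and the mutant values 9.21, 9.15 and 9.25. The groups did not overlap, and wild type replicate 1 lay nearest to the mutant arrays. The mean difference was 0.47 (SE 0.08), from 8.74 ± 0.11 to 9.20 ± 0.05 (SD, n = 3 each), or 1.38-fold. OsNOL was the only one of the 4 genes with a second probe set, and that one, a dimmer one, read 6.46, 6.56 and 6.52 in wild type and 7.33, 6.78 and 7.10 in mutant leaves. There the difference was 0.55 (SE 0.14), of the same sign as on the brighter probe set, and mutant replicate 2 was the lowest mutant array on both. Both probe sets read the same RNA, so they are not separate evidence.

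OSL2 was named as a rice gene of senescing leaves and encodes a transaminase of gamma-aminobutyrate (GABA), an amino acid that is not built into protein. Its values were 9.16, 9.07 and 9.07 in wild type and 9.62, 9.54 and 9.45 in mutant leaves. The lowest mutant value lay 0.30 above the highest wild type value, while the wild type arrays spanned 0.09 and the mutant arrays 0.17. The means of 9.10 ± 0.05 and 9.54 ± 0.08 (SD, n = 3 each) differed by 0.44 (SE 0.08), or 1.36-fold. A larger rise was seen in 14.7% of all genes, and for OsNOL in 13.2%.

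SAG12 ran the other way. In Arabidopsis the gene of this name encodes a cysteine protease of senescence-associated vacuoles and is a standard marker of natural leaf senescence. The rice gene matched here carries SAG12 and OsSAG12 as synonyms and also EP3A and REP1, names given to a cysteine protease of germinating rice seeds, so that its tie to leaf senescence rests on its name. Its values were 5.83, 5.73 and 5.84 in wild type and 5.43, 5.50 and 5.61 in mutant leaves. The groups did not overlap, but the gap between them was 0.13, narrower than the mutant span of 0.17. The difference was -0.29 (SE 0.08), from 5.80 ± 0.06 to 5.51 ± 0.09 (SD, n = 3 each), and 7.38% of all genes had a larger fall. Its difference was the smallest in size of the 4 on the deposited scale, but not relative to the median of all genes, given below.

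**Figure D1:**
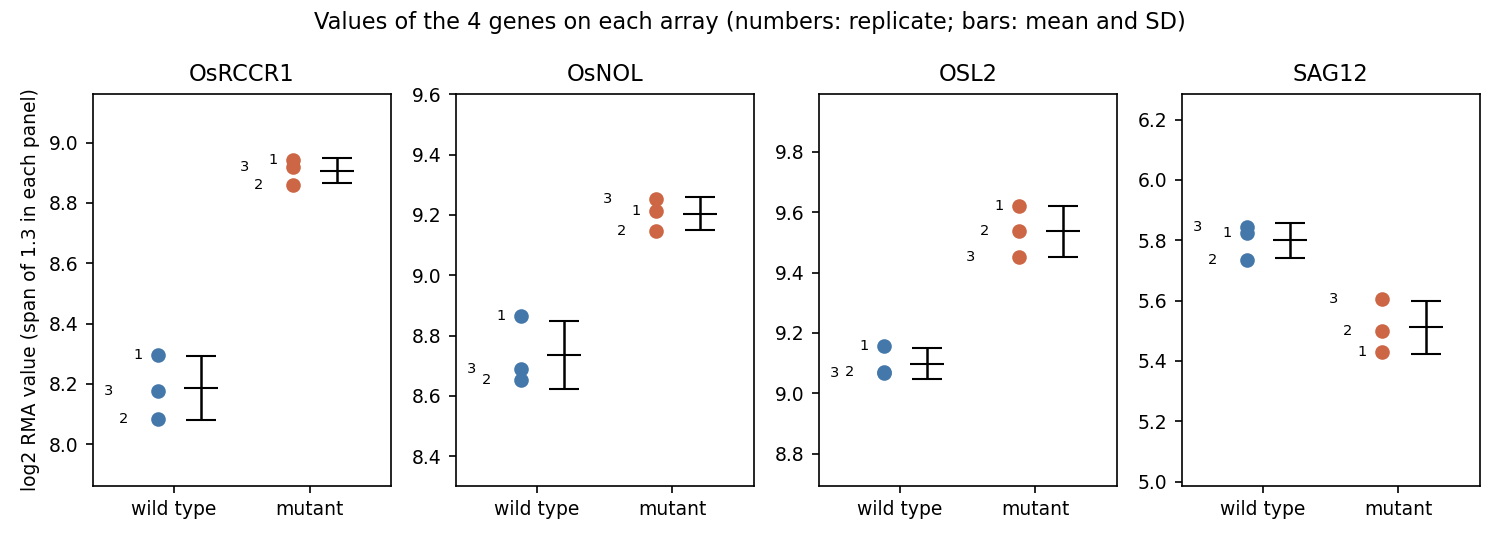
Log2 RMA values (vertical axis, the same span in each panel) of OsRCCR1, OsNOL, OSL2 and SAG12 in wild type (blue) and mutant (orange) flag leaves. Each point is 1 array with its replicate number, and the bar beside the points gives the mean and SD (n = 3). The 3 mutant values lie above the 3 wild type values for OsRCCR1, OsNOL and OSL2 and below them for SAG12.

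These separations have to be read against the arrays as a whole, where separation was common. Over all genes the 3 mutant values lay above the 3 wild type values in 32.2% and below them in 13.4%, or apart in 45.6%. By limma (Benjamini-Hochberg adjusted p under 0.05) 21.0% of genes rose and 6.32% fell, or 27.3% in all. The median of all genes was itself 0.10 higher in mutant leaves. Relative to that median OsRCCR1 stood 0.62 higher, OsNOL 0.37 and OSL2 0.34, while SAG12 stood at -0.39. Since the contrast was used to choose the 4 genes, their all being separated is no result.

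**Figure D2:**
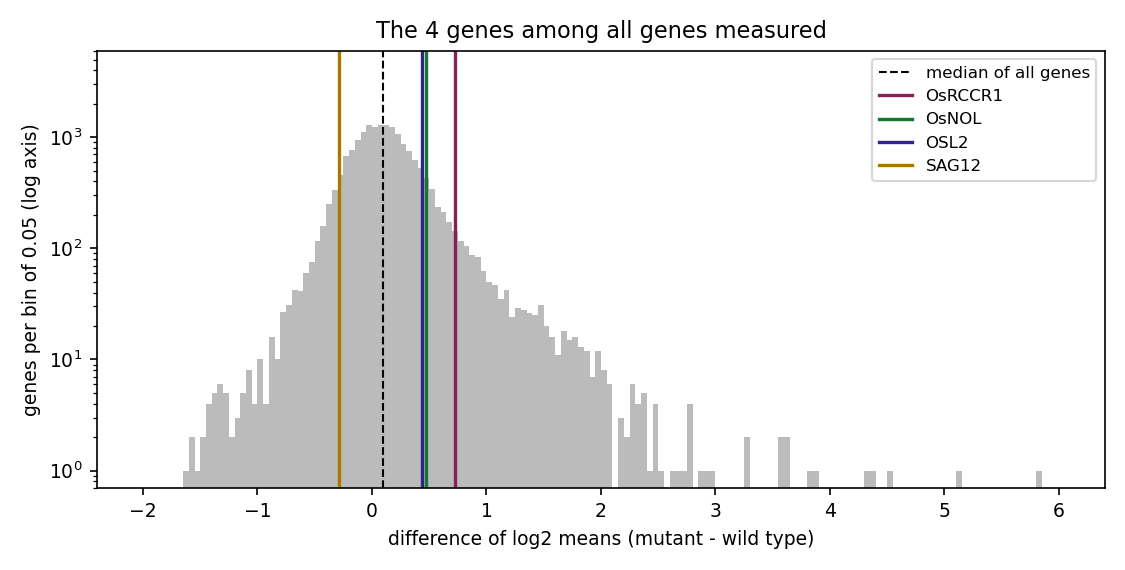
Number of genes (vertical log axis) by difference of log2 means (mutant value minus wild type value), in bins of 0.05 over 17905 genes. Coloured lines mark the 4 genes and the dashed line the median of all genes, 0.10. OsRCCR1 at 0.72 lies in the upper shoulder, OsNOL (0.47) and OSL2 (0.44) lie close together, and SAG12 (-0.29) lies to the left of the median.

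The sizes held when arrays were left out one at a time. Without any 1 array OsRCCR1 ran from 0.67 to 0.78, OsNOL from 0.43 to 0.53, OSL2 from 0.40 to 0.48 and SAG12 from -0.33 to -0.25. Mutant replicate 1 had the lowest array weight (0.567), and without it the 4 differences were 0.70, 0.46, 0.40 and -0.25 in the same order of genes. The scaling of the arrays moved them more. With each array centred on the median of its genes, which lowers all differences alike by 0.21, they were 0.51, 0.25, 0.22 and -0.50. No sign changed under 16 alternatives, or 15 for SAG12, which was not among the genes at or above the median level. For OsRCCR1 and OSL2 6 of these leave the difference as it was by construction, and for OsNOL and SAG12 5. They change only the spread, the genes tested or the probe sets used. Leaving out or weighting arrays could not change a sign either, as the groups did not overlap for any of the 4 genes. The kept signs are therefore no support for the differences.

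None of the other measured genes listed under chlorophyll breakdown passed the threshold. Of 4 such genes matched by name none rose or fell by limma, beside 21.0% and 6.32% of all genes, and none had an unadjusted p under 0.05. For so short a list no call is not far from these shares, so the count shows no contrast with OsRCCR1 and OsNOL. The 4 include THF1, a thylakoid protein, and the gene matched as Lls1, whose enzyme was not settled here. Their median difference was -0.00, beside 0.10 over all genes. NYC1, the partner of OsNOL in chlorophyll b reduction, read 9.10, 9.16 and 8.99 in wild type and 9.03, 8.72 and 8.86 in mutant leaves, so that the groups overlapped at mutant replicate 1. Its difference was -0.22 (SE 0.10, limma adjusted p = 0.145), opposite in sign to that of OsNOL. With arrays centred on their gene median or shifted by their median deviation it passed the threshold downward, at -0.43 (adjusted p = 0.00603) and -0.32 (adjusted p = 0.0286). These scalings lower every difference alike, and 3935 and 2167 of all 17905 genes fell under them, beside 1131 on the deposited scale.

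SGR, whose product removes magnesium and whose loss keeps senescing leaves green, read 9.66, 9.72 and 9.59 in wild type and 9.67, 9.67 and 9.59 in mutant leaves. These values overlapped, with a difference of -0.01 (SE 0.07, adjusted p = 0.907). Its second probe set differed by -0.09 (SE 0.15). THF1, a thylakoid protein whose loss in rice also delays yellowing, differed by 0.01 (SE 0.08, adjusted p = 0.962). The third probe set of THF1, a dim one, read 4.70, 4.55 and 4.74 in wild type and 5.70, 4.81 and 5.30 in mutant leaves, a difference of 0.61 (SE 0.20), so its probe sets disagreed. The gene matched by the name Lls1, a name used in maize for the ring-opening oxygenase, also carries the name CAO, that of the enzyme that makes chlorophyll b, and it could not be settled here which of them it encodes. It stood at 11.83 in wild type and 11.98 in mutant leaves. Its 3 mutant values lay above its 3 wild type values, as in 32.2% of all genes. The difference was 0.15 (SE 0.07, adjusted p = 0.172), and the gene passed the threshold with an intensity trend in the prior variance (adjusted p = 0.0323). Pheophytinase and other names of pheophorbide a oxygenase matched no gene and were not analysed here.

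Among 4 further genes linked to senescence, OsDOS alone passed the threshold. OsDOS encodes a nuclear zinc finger protein that delays leaf senescence in rice. Its values of 9.52, 9.82 and 9.68 in wild type and 10.76, 10.63 and 10.72 in mutant leaves did not overlap. It rose by 1.03 (SE 0.10, limma adjusted p = 0.000419), more than any of the 4 genes chosen, and its second probe set differed by 1.73 (SE 0.28). This call held under all 16 alternatives. OsEIN2, the central transducer of ethylene signals, read 8.18, 8.28 and 8.23 against 8.37, 8.43 and 8.42, a difference of 0.18 (SE 0.07, adjusted p = 0.0980), and it passed when only genes at or above the median level were tested (adjusted p = 0.0376). NAC2, a transcription factor that promotes leaf senescence in rice, differed by 0.13 (SE 0.15, adjusted p = 0.551). NAC3, of the same family, differed by -0.21 (SE 0.12, adjusted p = 0.227), or -0.34 without mutant replicate 1, where it passed downward (adjusted p = 0.0312).

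**Figure D3:**
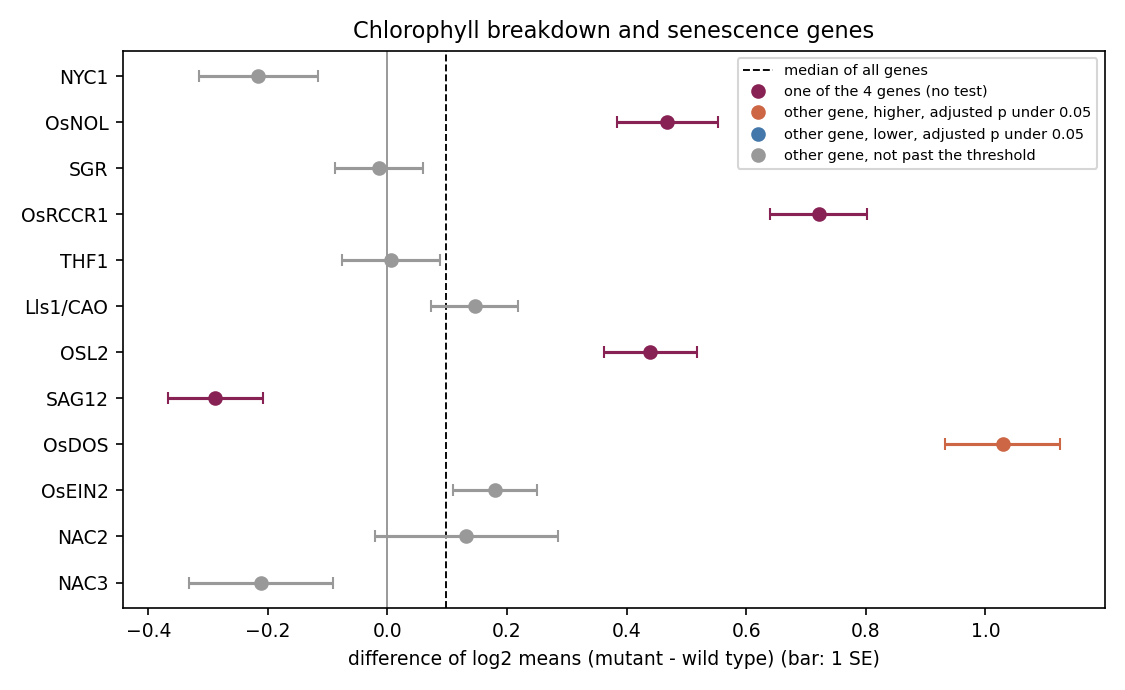
Difference of log2 means between mutant and wild type with 1 SE (horizontal axis) for the genes of chlorophyll breakdown (upper 6) and senescence (lower 6). The 4 chosen genes, given with no test, are purple. Among the other genes OsDOS at 1.03 alone is past the threshold, and the grey genes lie between -0.22 and 0.18. The dashed line is the median of all genes, 0.10.

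Proteases and autophagy genes work beside SAG12 on protein breakdown in natural senescence. Together with the protease inhibitors listed here, they differed by -0.25 to 0.46. Of 6 cysteine or vacuolar proteases and protease inhibitors, OC-I rose and none fell by limma, beside 21.0% and 6.32% of all genes. After centring on the gene median 3 fell and none rose, a scaling under which 3935 of all 17905 genes fell. OC-I, a cystatin that blocks cysteine proteases, rose by 0.46 (SE 0.10, adjusted p = 0.0132), a call lost when wild type replicate 2 (adjusted p = 0.0528) or 3 (adjusted p = 0.0567) was left out and with the mean of its probe sets, 0.12 (adjusted p = 0.293). The related cystatins OC-II and OC-XII differed by -0.21 and 0.18 and the protease CP1 by -0.25, none past the threshold. CP1 read low, at 4.15 in wild type and 3.91 in mutant leaves. Of 7 autophagy genes none passed by limma, beside the same shares of all genes. For lists this short such counts are not far from those shares. An unadjusted p under 0.05 was seen in 3 of the autophagy genes, ATG4B (0.23), ATG8B (0.24) and ATG4A (0.28). The share of all genes with such a p was not computed here. ATG4 proteins process ATG8, which coats the forming autophagosome. The median of the autophagy genes was 0.19. With an intensity trend 2 of the 7 rose, beside 4499 of all 17905 genes. Among genes at or above the median level 2 of 4 autophagy genes rose, beside 2634 of 8953 genes.

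Of 11 other genes of GABA, proline and nitrogen remobilisation, the metabolic neighbours of OSL2, 4 rose (36.4%) and 1 fell (9.09%), beside 21.0% and 6.32% of all genes. Their median was 0.00, below that of all genes (0.10). OAT, the ornithine aminotransferase, rose by 0.43 (SE 0.08, adjusted p = 0.00994) and P5CS1, of proline synthesis, by 0.41 (adjusted p = 0.0314). SSADH1, which takes up the product of GABA transamination, rose by 0.27 (adjusted p = 0.0288) and the glutamate dehydrogenase GDH2 by 0.25 (adjusted p = 0.0429). The glutamine synthetase GLN1-2 fell by 0.27 (adjusted p = 0.0430), and GLN1-1 and PPDKB, which serve nitrogen export, differed by 0.00 and -0.02. Apart from OAT these calls were near the threshold. When 1 array was left out, 2 rose without wild type replicate 1, mutant replicate 2 or mutant replicate 3, and 1 rose when wild type replicate 2 or 3 or mutant replicate 1 was omitted. The fall was lost without wild type replicate 2 or 3 or mutant replicate 1 or 3, and 2 genes fell without mutant replicate 2. With a replicate block 2 rose and none fell. Centring on the gene median left none that rose and 2 that fell, beside 1804 and 3935 of all 17905 genes.

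Among peroxisomal genes MS, ICL and catA rose by more than any of the 4 genes chosen. The list used held 10 measured genes of the glyoxylate cycle, fatty acid beta oxidation and peroxisomes, counting PLD1 and PLD2, which are named for phospholipase D. Of these 10 genes 5 rose and none fell, beside 21.0% and 6.32% of all genes. The list median was 0.32. All lists, this one among them, were chosen with earlier results of these data known, so such counts are not independent of the contrast. Malate synthase (MS) went from 6.36, 6.21 and 6.08 in wild type to 8.97, 8.87 and 8.80 in mutant leaves, a rise of 2.67 (SE 0.10, adjusted p = 7.00e-06). Isocitrate lyase (ICL), the other enzyme particular to the glyoxylate cycle, read 3.36, 3.34 and 3.56 against 5.50, 5.13 and 4.89 and rose by 1.75 (SE 0.15, adjusted p = 0.000319). Both sets of values were far apart between groups. The catalase catA rose by 1.45 and MFP, a multifunctional protein of beta oxidation, by 0.50 (adjusted p = 0.00584). The other 5 genes of the list, among them PEX11-4 (-0.24) and PLD1 (0.24), did not pass. Rises numbered 5 without any 1 array and 4 to 6 over all 16 alternatives. After centring on the gene median 2 genes of the list fell, beside 3935 of all 17905 genes.

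Photosynthesis and chlorophyll synthesis genes, which decline in natural senescence, differed in their counts. Of 12 photosystem, antenna and Rubisco genes none rose and 2 fell, beside 21.0% and 6.32% of all genes, PSB28 by 0.56 (SE 0.07, adjusted p = 0.00193) and NDH-M by 0.47 (SE 0.07, adjusted p = 0.00251). The median of this list was -0.04, with 5 positive and 7 negative differences. After centring on the gene median all 12 were negative, with a median of -0.26 and 6 falls. After the shift by the median deviation 9 were negative, with a median of -0.14. These scalings lower every difference alike, so the place of the list relative to all genes stays the same. The median of all genes became -0.12 and -0.002, and 3935 and 2167 of all 17905 genes fell. An intensity trend gave 2 rises and 4 falls. The differences of petC (-0.16) and PSAH (0.14) did not pass. The list holds some of the brightest probe sets, with RBCS at 14.30 and rca at 14.22 in wild type leaves where the highest value of any array was 14.39 to 14.50, while RBCS1 read 2.56. Signals so near the top or the bottom of the scale may not show a change, and this was not tested. All 14 chlorophyll synthesis genes and regulators had a positive difference, or 5 of them after centring on the gene median, where the list median went from 0.15 to -0.06. By limma 5 rose (35.7%) and none fell. PORA, a protochlorophyllide reductase, rose by 1.05 (SE 0.14, adjusted p = 0.00200), CPX, of porphyrin synthesis, by 0.48, PPOX1 by 0.35 and GLK1, a transcription factor of chloroplast development, by 0.32. There were 3 rises when wild type replicate 1 or 2 or mutant replicate 2 or 3 was omitted, 2 when wild type replicate 3 was, and 1 after centring on the gene median.

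Hormone genes that bear on senescence went in several directions. Of 17 abscisic acid and ethylene genes 5 rose (29.4%) and 1 fell (5.88%), beside 21.0% and 6.32% of all genes, with a median of 0.14. After centring on the gene median 5 rose and 4 fell, 11 of the 17 differences were negative and the median was -0.07. Under that scaling 1804 of all 17905 genes rose and 3935 fell, and the median of all genes was -0.12. The shift by the median deviation gave 2 falls, where 2167 of all genes fell. ACO1, which makes ethylene from its precursor, rose by 1.97 (SE 0.10, adjusted p = 3.66e-05), the ethylene receptor ETR2 by 0.90, the phosphatase gene ABIL1 by 0.73 and the bZIP factor ABF2, of abscisic acid response, by 0.56. The fall of VP1 (-0.43) was lost when wild type replicate 2 or 3 or mutant replicate 1 or 2 was omitted. Of 22 genes of cytokinin, the hormone that delays senescence, 5 rose and 2 fell, shares close to those of all genes, and rises numbered 2 to 3 and falls 1 to 2 when any 1 array was left out. After centring on the gene median 2 rose and 6 fell, beside 1804 and 3935 of all 17905 genes. The receptor HK3 rose by 0.61 and the activating enzyme LOGL3 by 0.56, while the response regulator RR4 fell by 0.45 (adjusted p = 0.00481). The cytokinin-activating enzyme LOGL1 rose by 0.44.

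**Figure D4:**
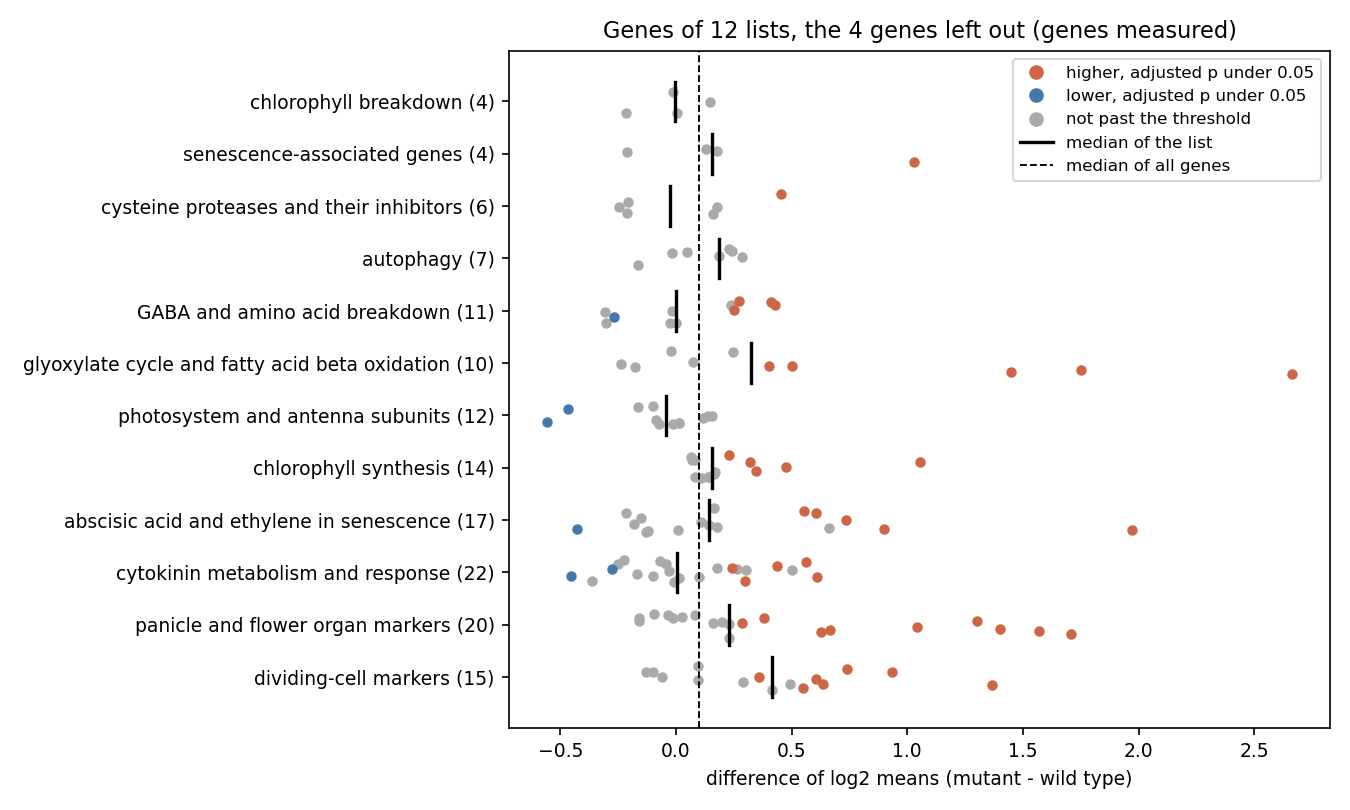
Difference of log2 means between mutant and wild type (horizontal axis) of the genes of 12 lists, with the 4 chosen genes left out and the number of genes measured in brackets. Points are genes, orange where higher and blue where lower by limma at an adjusted p under 0.05; solid bars are list medians and the dashed line is the median of all genes, 0.10. The chlorophyll breakdown genes lie around 0, and the peroxisomal genes catA (1.45), ICL (1.75) and MS (2.67) lie far to the right.

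Set side by side, the directions known from natural leaf senescence and those measured here matched for some genes and not for others. The products of OsRCCR1, OsNOL and OSL2 act in the breakdown of ageing leaves, and their transcripts were higher. These genes were chosen on this same difference, so their direction is no evidence of a likeness. For OsRCCR1 and OsNOL the role of the product was compared, not a known course of the transcript. Transcripts of MS and ICL, peroxisomal enzymes that are induced when leaves age, were also higher. All lists were chosen with earlier results of these data known. The directions of MS and ICL and of the list genes below are therefore no independent evidence either. SAG12, also chosen on its difference, was lower, but its tie to leaf senescence rests on its name. SGR differed by -0.01, NYC1 was lower without passing the threshold, and PSB28 and NDH-M were the 2 photosynthesis genes that fell. The other 10 photosystem, antenna and Rubisco genes differed by -0.16 to 0.16 on the deposited scale, with the limit on bright signals given above. All 12 were negative after centring on the gene median, which lowers every difference alike and puts the median of all genes at -0.12. Of 14 chlorophyll synthesis genes 5 rose (35.7%, beside 21.0% of all genes), opposite to their course in ageing leaves. After that centring 1 rose, and 9 of the 14 differences were negative. OsDOS, whose product delays senescence, rose by 1.03. Leaf chlorophyll itself was not measured on these arrays.

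The named genes whose values over the 6 arrays followed each of the 4 most closely were found by Pearson correlation among 2431 named genes. With 2 groups that are far apart, such a likeness mainly reflects the shared step between groups, and the values are given as a description. For OsRCCR1 these were the cellulose synthase gene CESA1 (r = 0.997, difference 0.82), GLT2 (0.997, 2.79), named for glutamate synthase, and CCS (0.996, 0.85), named for the copper chaperone of superoxide dismutase. For OsNOL they were NLP1 (0.998), of the nitrate-responsive NIN-like factors, the xanthine dehydrogenase XDH (0.997), which breaks down purines, and DAPB1 (0.996), of lysine synthesis, with differences of 0.58, 0.66 and 0.38. OSL2 was followed by the splicing factor gene U2AF65B (0.997, difference 0.19), the bHLH factor BCL1 (0.996, difference 1.94) and MRL7L (0.995, difference 0.48). For SAG12 the closest were the kinase gene NEK4 (0.983), MTP7 (0.978), of the metal tolerance proteins, and PPE (0.978), a pentose phosphate epimerase, with differences of -0.38, -0.23 and -0.11. SAG12 thus had no neighbour as close as those of the other 3 genes, and none of the 12 genes was among the lists of senescence genes used above.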

How the data were processed

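Biotin-labelled RNA of 6 flag-leaf samples was hybridised to Affymetrix Rice Genome Arrays, 1 array each. The authors deposited log2 values for each probe set. Per the submitters' processing notes they used RMA and affy, whose versions are not given in the sources used. RMA equalises intensity distributions, so differences in total RNA are removed. The log2 scale was taken from the values (1.65 to 14.5). The number of arrays limits the precision, and scanner files were not used here.

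After removal of 123 controls, 22436 of 57258 probe sets were tied to 1 gene by the platform annotation, 95 to several and 34727 to none. Names came from RefSeq assembly ASM3414082v1, in which all 17905 genes matched; its coordinates were not used. Lists were matched by symbol or by a synonym of 1 gene only, so 12 list names that fit several genes were dropped, EIL1 among them; AS2, a transcription factor of the same name, and CAO in the photosystem list were removed after the names were read. The members, the lists and the rule for named genes (every gene of the 2 senescence lists, up to 4 genes of smallest adjusted p of each other list, and the 3 genes most like each member) were chosen with earlier results of these data known.

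The mutant and wild type groups entered one linear model per gene in limma 3.58.1 under R 4.3.3, with moderated two-sided p-values, Benjamini-Hochberg adjustment over all genes, a threshold of 0.05 and no block, and the code was tested on simulated arrays. Standard errors are the moderated ones of this fit, or for further probe sets of a fit over all probe sets. Tables and figures were made with pandas 2.3.3 and matplotlib 3.10.9 in Python 3.11.15. The alternatives were a replicate block, each array left out, array weights, other prior variances, 3 other scalings, genes at or above the median level alone, the mean of probe sets, and omission of probe sets ending in _x_at or _s_at.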

Additional observations from a re-analysis of the deposited data

How the results depend on the processing

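Over all genes 3752 rose and 1131 fell. Rises ranged from 2128 to 3639 and falls from 572 to 1024 when 1 array was left out, with 2128 and 572 when wild type replicate 3 was omitted, 2427 and 573 for wild type replicate 2, and 748 falls for mutant replicate 3. With each array centred on the median of its genes 1804 rose and 3935 fell, with the shift by the median deviation 2704 rose and 2167 fell, and with centring on the median of probe sets 3995 rose and 641 fell. These scalings move the median of all genes from 0.10 to -0.12, -0.00 and 0.15, and every difference by the same amount. The differences of OsRCCR1, OsNOL, OSL2 and SAG12 became 0.51, 0.25, 0.22 and -0.50 with centring on genes and 0.62, 0.37, 0.34 and -0.39 with the shift. Of the other chlorophyll breakdown genes 1 rose with an intensity trend and 1 fell under each of these last 2 scalings. Of the other senescence genes 2 rose among genes at or above the median level, where 3 had a value, and 1 fell with centring on genes; left-out arrays gave 0 to 1 falls. The 48 other named genes had 28 with the same call under every alternative. Samples of the same replicate number shared deviations at r = 0.117, 0.116 and -0.02, so the numbers were not taken as pairs, and not every sample correlated best with its own number. With the replicate block 3743 genes rose and 1011 fell, and the 4 differences were unchanged by construction (0.72, 0.47, 0.44 and -0.29).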
